A study of Mus musculus with 4 samples.

Results

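The telomere-proximal ends of the mouse autosomes were examined in H3K4me3 HiChIP-seq of MLg cells, a mouse lung fibroblast line (ATCC CCL-206). HiChIP-seq joins by ligation restriction fragments that lie close together in the nucleus and then precipitates the chromatin that carries a histone mark, here H3K4me3, the mark of active promoters. Each pair of reads reports a ligation, which is taken here as a contact. The distal end of a chromosome was defined as its last 5 Mb in mm10 and was divided into 100-kb bins counted back from the last base. There were 19 such ends, on chromosomes 1 to 19, and 921 of their 950 bins passed the filters on assembled sequence and coverage, out of 23484 of 24639 bins of the autosomes. Between 46 and 49 bins passed in each end. The 19 ends form 171 pairs of ends on different chromosomes. They were compared with 433 interior windows of 5 Mb, and with the proximal end of each chromosome, which was the first 5 Mb from the first bin that passed.

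Each of the 4 conditions had 1 library. Values by library are given below with Control first, then TGFB1, then TGFB1+miR-9-LOF, and with miR-9-LOF last, where LOF is loss of function. The miR-9-LOF and TGFB1+miR-9-LOF cells received 60 nM of an antagomiR against miR-9-5p for 24 h, and the TGFB1 and TGFB1+miR-9-LOF cells received TGFB1 at 5 ng/ml for 4 h. The study's methods describe a negative control antagomiR for the other cells, while the labels name none for Control and TGFB1. Without replicates, every interval and p-value below covers counting error only, and a test between libraries compares those libraries and not the conditions.

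The ends of linear chromosomes carry telomeres, long arrays of a short repeat bound by the shelterin complex, which hide the end from the DNA damage response. Mouse chromosomes are telocentric, so that the centromere and 1 of the telomeres lie together at the proximal end, and the distal end is the free end of the only long arm. Interphase chromosomes occupy territories and can keep an orientation in which centromeres gather with centromeres and telomeres with telomeres, called the Rabl configuration. Separately, chromatin of the active, gene-rich A compartment contacts other A chromatin, and the gene-poor B compartment contacts B.

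In the assembly (GRCm38) each end stops in unknown bases, 100000 at 17 ends and up to 150000 at the other two, where no pair can be placed.

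The libraries held 15359978, 10864558, 14121095 and 15568047 valid pairs. Of these, 2149792, 1353102, 2227925 and 2206739 joined 2 autosomes and reached a mapping quality of 30 on both sides. The share of autosomal pairs that reached this quality was 90.3%, 90.6%, 90.6% and 86.3%. Among the marker genes of cell types, 3 of 10 fibroblast genes (Col1a1, Vim and Pdgfra) had over 3 times the pair ends of the median coding gene within 2 kb of their TSS, and 0 of 4 did for epithelial, for endothelial and for leukocyte genes. The fibroblast genes ranged from 0.585 (Col3a1) and 0.889 (Thy1) to 5.06 times the median coding gene (Vim), and the other 12 from 0.291 to 1.17, so that Col3a1 and Thy1 lay below epithelial Epcam (1.04) and Sftpc (1.08). The share of all coding genes over 3 times the median was not counted, while 6.50% lay over 5 times. The marker counts therefore only describe these lists.

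The first question was whether distal ends of different chromosomes met more often than their coverage predicts. Expected pairs were computed by multiplying the factors of both bins, fitted so that every bin had as many expected as observed interchromosomal pairs, and values are given as observed over expected pairs. Distal ends were joined with distal ends more often than expected in every library. In Control 7746 pairs joined distal ends where 5984 were expected, an observed over expected of 1.29 (95% Poisson interval 1.27 to 1.32). The TGFB1 library had 1.33 (1.29 to 1.36, 5043 pairs), the TGFB1+miR-9-LOF library 1.30 (1.27 to 1.33, 7527 pairs), and the miR-9-LOF library 1.37 (1.34 to 1.40, 8030 pairs). All 4 intervals lay above 1, and no pair of positions joining distal ends occurred in more than 1 library. Over the 4 libraries the value was 1.32 (1.31 to 1.34, 28346 pairs).

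Interior windows joined with interior windows showed 1.00 in each library, and distal ends met interior windows at 0.996 of expectation. Interior bins make up 21198 of the 23484 bins, and the factors match each bin's total, so both values lie near 1 by construction. The ratio of distal-distal to interior-interior therefore restates the distal-distal value. It was 1.29 in Control (two-sided exact binomial p = 1.46e-103) and between 1.30 and 1.36 in the other 3. Proximal ends met one another still more often than distal ends did, at 1.49, 1.55, 1.47 and 1.51 by library, and the ratio of distal-distal to proximal-proximal over the 4 libraries was 0.879 (0.864 to 0.894, exact binomial p = 1.24e-48).

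**Figure D1:**
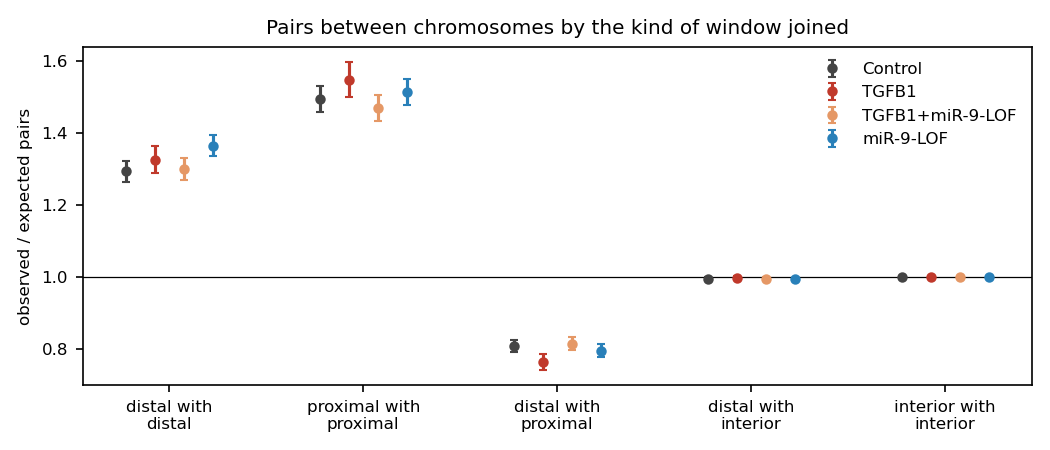
Observed over expected pairs between chromosomes (vertical axis, not starting at 0) by the kind of 5-Mb windows joined, with 1 point per library and bars for the 95% Poisson interval. Distal-distal values lie between 1.29 and 1.37, distal-proximal values between 0.765 and 0.816, and interior values at 1.00.

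Distal ends and proximal ends of other chromosomes were joined less often than expected. Control had 0.810 (0.793 to 0.828), TGFB1 had 0.765 (0.744 to 0.787), TGFB1+miR-9-LOF had 0.816 (0.799 to 0.834) and miR-9-LOF had 0.797 (0.780 to 0.814), all below 1. Of the 342 combinations of a distal end with another chromosome's proximal end, 287 (83.9%) lay below 1 over the 4 libraries, 198 of them in every library, with a median of 0.760. The median pair of interior windows stood at 0.994, so a value below 1 is common in itself. The share of all window pairs below 1 was not counted. Summed over its partners, the distal end lay below 1 for 18 of 19 chromosomes, chromosome 19 being the exception. Like ends thus met more, and unlike ends less, than their coverage predicts. Since the factors match each bin's total, an excess among like ends must be offset by a deficit with other bins. The excess and the deficit are therefore not independent results.

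**Figure D2:**
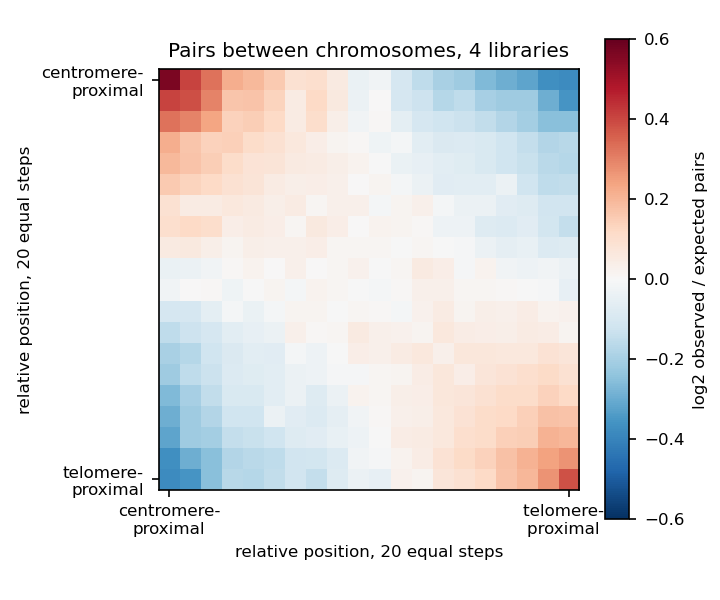
Pairs between chromosomes over the 4 libraries, by relative position along each chromosome in 20 equal steps from the centromere-proximal to the telomere-proximal end (both axes), coloured by log2 observed over expected. Red corners join like ends and blue corners join unlike ends, and the values fade towards the middle of the chromosomes.

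The excess rose towards the tip of the chromosome. Windows at the same distance from the end met at 1.32 for the last 5 Mb, 1.16 for 5 to 10 Mb, 1.16 for 10 to 15 Mb, 1.09 for 15 to 20 Mb and 1.05 for 20 to 25 Mb. Within the last 5 Mb, pairs with the distal ends of other chromosomes stood at 1.75 (1.70 to 1.80) for the last 0.5 Mb, 1.53 for the next 0.5 Mb, 1.36 from 1 to 1.5 Mb and 1.20 (1.17 to 1.24) from 4.5 to 5 Mb. By library the last 0.5 Mb had 1.65, 1.70, 1.76 and 1.87, with the highest value in miR-9-LOF. Each of these 4 values was above every library's value from 1 to 1.5 Mb, which lay between 1.34 and 1.39.

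**Figure D3:**
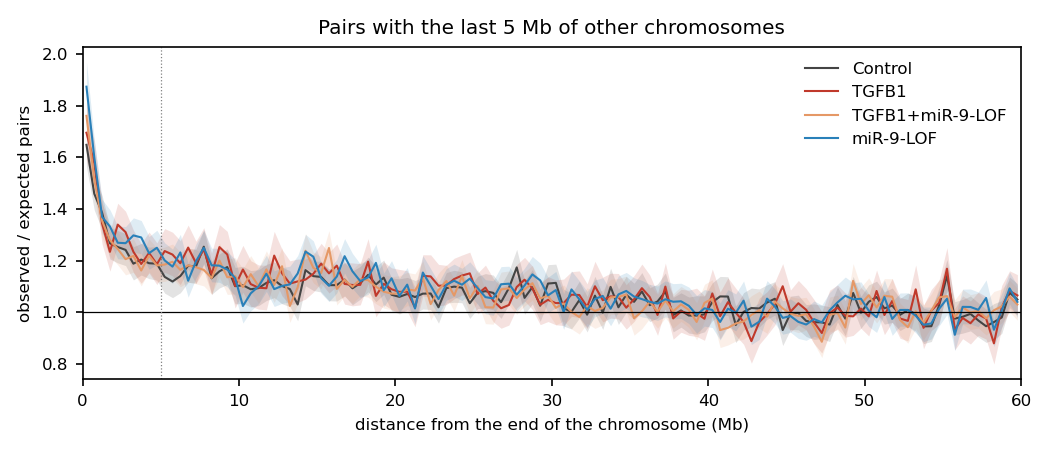
Observed over expected pairs with the last 5 Mb of other chromosomes (vertical axis, not starting at 0) against the distance from the chromosome's end in steps of 0.5 Mb, with 1 line per library and its 95% Poisson interval shaded. All 4 lines fall from between 1.65 and 1.87 at the tip to about 1.20 at 4.5 to 5 Mb, next to the dotted line at 5 Mb, and approach 1 further in.

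Taken alone, the last Mb of a chromosome met the last Mb of another at 2.98 times expectation (2.85 to 3.11, 2119 pairs where 711 were expected). In Control 540 pairs were seen where 203 were expected, at 2.65 (2.44 to 2.89). TGFB1 had 2.83 (2.54 to 3.14, 358 pairs), TGFB1+miR-9-LOF had 3.01 (2.77 to 3.27, 554 pairs) and miR-9-LOF had 3.38 (3.13 to 3.65, 667 pairs). The last Mb met the next Mb of other chromosomes at 1.60, and the Mb from 4 to 5 Mb met its like at 1.18. The 2119 pairs fell in 1687 of 12734 possible pairs of 100-kb bins, with at most 17 pairs in any of them, and the 10 fullest held 3.87%. With 711 expected pairs over so many bin pairs, a wide spread follows largely from sparse counts. Among pairs of chromosomes, 7 and 11 held the most, 110 pairs (5.19%). The value of the last Mb stood at 2.48 without the last 300 kb of each chromosome, at 2.87 with a mapping quality of at least 40, and at 3.02 without ends within 2 kb of a coding TSS.

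Every chromosome took part at the tip. The last Mb met the last Mb of other chromosomes at over 1 for 19 of 19 chromosomes, in all 4 libraries for 18 of them, and at over 2 for 17. The last Mb was chosen after the data were seen, and each pair counts for both of its chromosomes. These counts therefore describe how the excess was spread and are no separate test of it. They were not made for other stretches of this size. The median was 2.82. Chromosome 11 had 3.88 (3.58 to 4.21, 596 pairs), and chromosomes 5, 2 and 16 followed at 3.43, 3.42 and 3.41 with overlapping intervals. Chromosome 3 had the lowest value, 1.58 (1.23 to 1.99, 70 pairs), with 0.530 in TGFB1 on 4 pairs and between 1.61 and 2.02 in the other libraries. Chromosome 4, which kept 7 bins of its last Mb, had 1.96 (1.64 to 2.33), and these neighbours in the order did not differ beyond their intervals. Of the 171 pairs of tips, 152 (88.9%) lay over 1, though the median pair had only 3.19 expected pairs. The share over 1 among other pairs of stretches of this size was not counted.

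Over the last 5 Mb, chromosome 2 stood highest with its observed over expected at 1.61 (1.55 to 1.66), with 1.59, 1.59, 1.59 and 1.65 by library. Chromosomes 7 (1.51), 5 (1.49) and 1 (1.45) followed, and these 3 did not differ from their neighbours among them beyond their intervals. At the other extreme, chromosome 18 stood at 0.957 (0.889 to 1.03) with 0.947, 0.865, 0.959 and 1.02 by library, and chromosome 17 at 0.985 (0.934 to 1.04) with 1.05, 0.945, 0.932 and 1.00. The intervals of both included 1. Chromosomes 3 (1.11), 19 (1.14), 12 (1.19) and 13 (1.20) came next, and the remaining 9 ends lay between 1.26 and 1.39. The ends of chromosomes 17 and 18 were thus at expectation over 5 Mb, while their last Mb stood at 2.49 (2.08 to 2.95) and 2.35 (1.79 to 3.03).

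**Figure D4:**
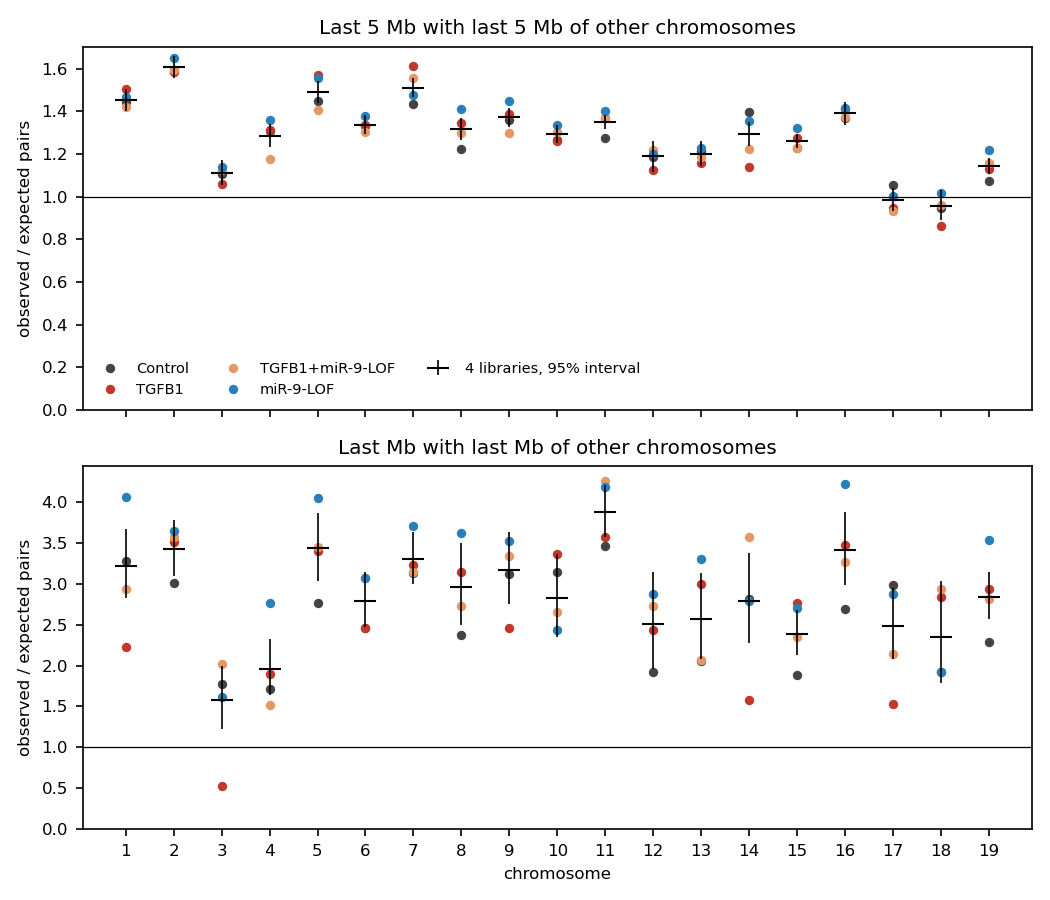
Observed over expected pairs of each chromosome's last 5 Mb (top) and last Mb (bottom) with the same stretch of the other chromosomes, with a coloured point per library and a black dash for the 4 libraries with its 95% Poisson interval. In the top panel chromosomes 17 and 18 sit at 1, and in the bottom panel all 19 dashes lie above 1, from 1.58 to 3.88.

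The genes at these ends were described by a rule, the coding gene nearest the end and the 2 coding genes with most pair ends within 2 kb of a TSS, and their levels are given as multiples of the median coding gene. On chromosome 2 the outermost gene was Polr3k, a subunit of RNA polymerase III, with its TSS 0.249 Mb from the end and 1.58 times the median. The fullest promoter there was shared by Gid8, a subunit of the GID ubiquitin ligase, and Dido1, a PHD finger protein, at 8.22 and 8.21 times the median, since their divergent TSS lie side by side and count largely the same reads. On chromosome 7 the outermost gene was Mrgprd, a receptor of sensory neurons (0.769 times), and the fullest promoters were those of Cd81, a tetraspanin of the plasma membrane (7.43 times), and Cttn, which encodes the actin-binding protein cortactin (6.80 times). On chromosome 5 they were Rfc3, a subunit of the DNA clamp loader (1.37 times), Pomp, a proteasome assembly factor (3.33 times), and Lnx2, a ubiquitin ligase (3.19 times).

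The same rule was applied to the 3 lowest ends. On chromosome 18 the outermost gene, Tmx3, a disulfide isomerase of the endoplasmic reticulum, was also the fullest at 1.35 times the median, followed by Rttn, a centriole protein, at 0.940 times. On chromosome 17 the same held for Mettl4, a methyltransferase (2.85 times), followed by Adcyap1, which encodes a neuropeptide (0.636 times). On chromosome 3 Wls, the carrier of secreted Wnt proteins, was outermost and fullest at 4.69 times, and Zranb2, a splicing-related protein, followed at 3.80 times. Of the 20807 coding genes of the autosomes, 1122 (5.39%) had their TSS in the distal ends, which hold 3.86% of the bases, and their share with over 5 times the median was 6.95%, against 6.50% over all genes.

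Pairs of ends were then tested singly against all 106483 pairs of 5-Mb windows on different autosomes (two-sided exact Poisson test on the 4 libraries, Benjamini-Hochberg adjusted p at most 0.05). Of the 171 pairs of ends, 85 (49.7%) were called above expectation, where 8.15% of all window pairs were, and 10 (5.85%) were called below, where 9.26% of all were. Among pairs of windows at the same distance from the end, 29.8% were called above at 5 to 10 Mb and 25.7% at 10 to 15 Mb. Pairs of ends also had more expected pairs than interior pairs, a median of 101 against 59.0, which makes a call easier. Pairs of ends above 1 in all 4 libraries numbered 93 (54.4%), against 14.6% of all window pairs. The median pair of ends had 1.27, with a range from 0.377 to 2.50, while the median pair of interior windows had 0.994.

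The highest values were those of chromosomes 12 and 18, 2 and 5, 5 and 12, 2 and 7, and 17 and 18. For 2 and 5 the numbers of pairs were 77, 57, 64 and 77 by library, at 2.46, 2.80, 2.09 and 2.34 times expectation and 2.39 in all (2.11 to 2.69). For 2 and 7 there were 89, 72, 103 and 117 pairs, at 2.24 in all (2.02 to 2.48), and for 5 and 12 there were 26, 21, 30 and 29, at 2.37 (1.94 to 2.87). The pairs 12 and 18 (2.50, 38 pairs) and 17 and 18 (2.00, 49 pairs) joined ends whose value over all partners lay below the 1.32 of all ends, and 12 and 18 had 6, 2, 11 and 19 pairs by library, at 1.66, 0.817, 2.37 and 4.25 times expectation, so that miR-9-LOF stood highest and TGFB1, on 2 pairs, below 1.

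The lowest values were those of 11 and 18, at 0.377 (0.261 to 0.527) with 11, 5, 10 and 8 pairs, and 15 and 18, at 0.486 with 8, 6, 9 and 15 pairs. They were followed by 11 and 12 at 0.597, 3 and 16 at 0.618, and 3 and 11 at 0.618. These 5 pairs lay below 1 in every library. Each joined the end of chromosome 3, 12 or 18 with that of chromosome 11, 15 or 16.

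Taken as groups, pairs of ends of like composition met most, though single pairs departed from this. A compartment score was computed from the pairs within chromosomes in 500-kb bins, where positive values mark the gene-rich compartment. It was positive for 15 ends and negative for 4, those of chromosomes 3, 12, 17 and 18. The 105 pairs of positive ends met at 1.39 (1.37 to 1.41), with 69 called above and 0 below, and the 6 pairs of negative ends met at 1.94 (1.73 to 2.17), with all 6 called above. The 60 mixed pairs stood at 0.990 (0.960 to 1.02), with 10 called above and 10 below. The ends of chromosomes 10 (score 0.04) and 13 (0.07) lay close to the division at 0 and entered 8 of the mixed pairs, which stood at 1.30 (1.20 to 1.41) and held 5 of the 10 called above and 0 of those called below. Without these 2 ends, a choice made after the values were seen, the other 52 mixed pairs stood at 0.951 (0.920 to 0.984), with 5 called above and 10 below. Those 5 included chromosomes 5 and 12 at 2.37 and 3 and 5 at 1.95. Of all window pairs on different autosomes, 8.15% were called above and 9.26% below. Interior window pairs of like and of unlike score were not counted, so a dependence on score particular to the ends was not tested. By library the pairs of negative ends stood at 2.11, 1.67, 1.76 and 2.12, and the mixed pairs between 0.953 and 1.00. Across the 171 pairs, the absolute difference in score between the ends correlated with observed over expected at Pearson's r = -0.58 and Spearman's rho = -0.57, and the difference in GC content at -0.58 and -0.57. Each end enters 18 of these pairs, so they are not independent, and the score comes from the same libraries.

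**Figure D5:**
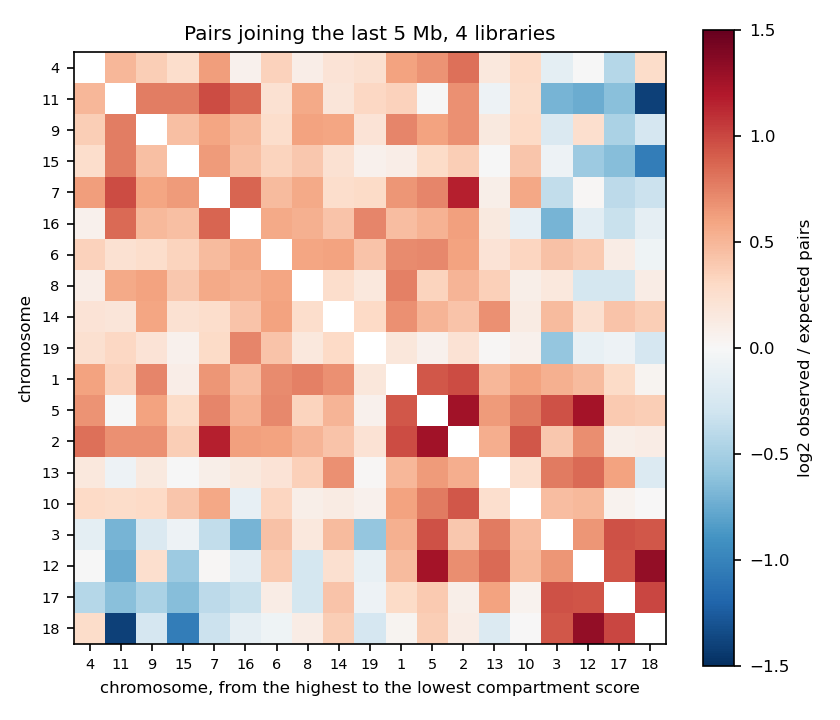
Log2 observed over expected pairs for the 171 pairs of distal ends over the 4 libraries, with chromosomes on both axes in order of compartment score from the highest to the lowest. The 4 ends of negative score (3, 12, 17 and 18) form a red block, at 1.94 times expectation together, and are pale or blue with most of the ends of positive score.

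Compared as medians, the ends were richer in genes than the interior. For the interior, the median window of each chromosome was found, and the median of these over chromosomes is given. The median end had 44.02% GC against 41.95%, and 8.13 coding TSS per Mb against 6.40. Matches to the G-quadruplex motif stood at 236 per Mb against 211. The motif was 4 runs of at least 3 G with loops of 1 to 7 bases, counted on both strands. Each of the 3 measures was above the median interior window of the same chromosome at 14 of 19 ends. Pooled over its bins, the interior had 8.53 coding TSS per Mb, more than the median end. Pooled in the same way Mb by Mb, the ends had between 9.04 and 14.5. The motif occurs in all 491 windows of 5 Mb, so that only its density is informative, and a match is no evidence of a folded structure. Across the 19 ends, GC content correlated with the distal-distal value at r = 0.71 (rho = 0.67) and the number of coding TSS per Mb at r = 0.45 (rho = 0.53). Ends share partners and coverage, so these correlations only describe them. The ends of chromosomes 17 and 18 had the lowest GC content, at 37.5% each, with 3 and 9 coding TSS, while that of chromosome 10 had 166.

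Composition was also described Mb by Mb. The last Mb had 41.7% GC and a mean compartment score of 0.24, both lower than in each of the following 4 Mb, where GC lay between 43.0% and 45.0% and the score between 0.42 and 0.57. The interior stood at 41.9% GC and a mean score of 0.10, so that the last Mb did not exceed it in GC content. The density of coding TSS in the last Mb was higher than in each of the following 4 Mb, at 14.5 per Mb against 9.04 to 13.1. When the expectation also took account of the GC decile of both bins, the last Mb stood at 3.00 and the 5-Mb ends at 1.29, and with deciles of the compartment score at 2.98 and 1.30.

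To place the contacts within the ends, the pairs of each 100-kb bin with the distal ends of other chromosomes were tested against all 23484 bins (exact Poisson test, Benjamini-Hochberg adjusted p at most 0.05). Of the 921 distal bins, 172 (18.7%) were called above expectation, where 1.53% of all bins were. None was called below, where 0.566% of all were, although the median distal bin had 39.6 expected pairs, and 782 (84.9%) lay over 1. The share of all bins over 1 was not counted. The bins called above numbered 79 of 164 in the last Mb, 39 of 190 in the next, then 26 of 190, 15 of 189 and 13 of 188. They lay on 18 of the 19 chromosomes, and chromosome 12 had none. Its end had the fewest pair ends, 15279 per Mb against 46925 at the median end, which makes a call harder. The last Mb of chromosome 12 stood at 2.50 (1.96 to 3.15) with the last Mb of other chromosomes. In the interior 187 of 21198 bins (0.882%) were called above, and among the 927 proximal bins 1 was called above and 32 below. Next to the distal ends, 51 of the 918 bins that lay 5 to 10 Mb from the end were called above.

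The 5 bins with the smallest p lay on chromosomes 2, 7 and 11, within the last 0.6 Mb. The bin chr11:121682544-121782543 (0.3 to 0.4 Mb from the end) had 74, 55, 85 and 74 pairs by library, at 2.18 times expectation (1.94 to 2.45), and holds the TSS of Metrnl, a secreted protein, at 4.02 times the median coding gene. Beside it, chr11:121782544-121882543 stood at 2.11 and holds Ptchd3 at 0.772 times the median. The bin chr7:145241460-145341459, the outermost assembled 100 kb of chromosome 7, had 57, 25, 55 and 42 pairs, at 2.29 (1.97 to 2.66). Its genes are Tpcn2, which encodes a cation channel of lysosomes, and the receptor genes Mrgprf and Mrgprd, at 1.42, 1.09 and 0.769 times the median.

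On chromosome 2, chr2:181713225-181813224 had 30, 24, 37 and 51 pairs, at 2.48 (2.09 to 2.92), and holds Myt1, a zinc finger factor of the nervous system, and Oprl1, the nociceptin receptor, at 0.873 and 0.728 times the median. In chr2:181513225-181613224, at 2.02, lie Zfp512b, Dnajc5, a chaperone of synaptic vesicles, and Prpf6, a splicing factor, at 4.46, 4.31 and 4.08 times, where the TSS of Zfp512b and Prpf6 lie within 1 kb of each other and share reads. Bins with promoters of low and of high H3K4me3 HiChIP signal were thus both among the 5.

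A distal end also meets the proximal end of its own chromosome, from which it is separated by 48.5 to 182.6 Mb. Here the expectation had to include distance, taken from interior pairs, and chromosome 1 was left out because no interior pair is as far apart. Over 18 chromosomes the values by library were 1.32, 1.249, 1.32 and 1.33, with 1.31 in all (1.28 to 1.34, 9692 pairs). This sum rested on 2 chromosomes. Chromosome 11 stood at 2.98 (2.85 to 3.12), with 3.04, 2.66, 3.08 and 3.04 by library, and chromosome 19, the shortest, at 1.77 (1.70 to 1.83), with 1.71, 1.68, 1.81 and 1.85. Genomic coverage of MLg cells was not analysed here, so that a changed karyotype of the line and a higher contact frequency cannot be told apart for these 2 chromosomes. Without chromosome 11 the sum was 1.16, without chromosome 19 it was 1.18, and without both, a choice made after the values were seen, it was 0.963 (0.936 to 0.990) with 0.960, 0.935, 0.969 and 0.978 by library. It was 0.947 with bins between 50% and 200% of the median coverage.

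Chromosome by chromosome, the own ends had a median of 0.998, and 7 of 18 were called above and 6 below (exact Poisson test, adjusted over 18). Among 1784 pairs of interior 5-Mb windows of the same chromosome that lay at least 48.5 Mb apart, 30.7% were called above and 48.3% below in the same way (adjusted together with the own ends, of which 7 and 6 were then called), with more expected pairs, a median of 606 against 289. Calls in both directions were thus common among distant windows of a chromosome in general, and nothing particular to own ends is read from these counts. The interior pairs had a median of 0.924, and 90% of them lay between 0.413 and 1.70, a range that the values of chromosomes 11 and 19 exceeded. Chromosome 4 stood at 1.63 and chromosome 7 at 1.33, while chromosomes 3, 8 and 6 stood at 0.562, 0.607 and 0.646 and were below 1 in every library. Against the interchromosomal coverage expectation, without distance, own ends met at 3.93.

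Pair ends at the distal ends had their partner on another chromosome more often than pair ends in the interior. The interchromosomal share by library was 18.995% against 16.034%, 17.102% against 14.174%, 21.523% against 18.118% and 20.846% against 17.124%, a difference of 2.96, 2.93, 3.41 and 3.72 percentage points. In each library the 95% Wilson intervals of the shares did not overlap, as in Control with 18.925% to 19.066% against 16.020% to 16.049%. The shares at proximal ends were 19.6%, 17.6%, 22.5% and 21.1% by library, close to the distal ones. A window at a chromosome's end lacks neighbours beyond the end, so its share is not directly comparable with that of an interior window. Distal and interior bins also differ in their mix of chromosomes, and Control shares at distal ends ran from 16.5% (chromosome 10) to 23.5% (chromosome 19). No comparison within chromosomes was made, and what the difference reflects was not tested.

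Libraries were then compared for the distal-distal value (exact binomial test, two-sided and conditional on the summed pairs, Benjamini-Hochberg over 4 ratios). The log2 ratio of TGFB1 to Control was 0.03 (-0.02 to 0.09, adjusted exact p = 0.247) and that of TGFB1+miR-9-LOF to TGFB1 was -0.03 (-0.08 to 0.02, adjusted exact p = 0.282). The miR-9-LOF library stood above Control by 0.08 (0.03 to 0.12, adjusted exact p = 0.00340), and TGFB1+miR-9-LOF stood 0.07 below miR-9-LOF (log2 ratio -0.07, -0.12 to -0.02, adjusted exact p = 0.00475). The miR-9-LOF library had the lowest share of pairs at mapping quality 30, 86.3% against 90.3% or more. With no filter on mapping quality the ratio of miR-9-LOF to Control was 0.07. Both calls were lost with ends of 2 Mb (0.12, adjusted exact p = 0.0702, and -0.08, adjusted exact p = 0.215) and with bins between 50% and 200% of the median coverage (0.05, adjusted exact p = 0.309, and -0.11, adjusted exact p = 0.0627), and the second also when libraries were thinned to the smallest (-0.07, adjusted exact p = 0.0661, median of 10). The differences between libraries were smaller than the excess over 1 within each of them.

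In the last Mb the log2 ratio of miR-9-LOF to Control was larger, 0.35 (0.18 to 0.51, adjusted exact p = 0.000118). The last Mb was chosen after the data were seen, and its adjusted p-values do not account for that choice. With the shorter ends given above, which contain the last Mb, the ratio of miR-9-LOF to Control was 0.12 (adjusted exact p = 0.0702). In the last Mb the ratio of TGFB1 to Control was 0.09 (-0.11 to 0.29, adjusted exact p = 0.372). TGFB1+miR-9-LOF stood 0.09 above TGFB1 (-0.10 to 0.29, adjusted exact p = 0.372), and its log2 ratio to miR-9-LOF was -0.17 (-0.33 to -0.0013, adjusted exact p = 0.0962). Between distal ends and other chromosomes' proximal ends, TGFB1 stood below Control by a log2 ratio of -0.08 (-0.13 to -0.03, adjusted exact p = 0.00322), and TGFB1+miR-9-LOF stood above TGFB1 by 0.09 (0.04 to 0.14, adjusted exact p = 0.00133). The ratios of miR-9-LOF to Control and of TGFB1+miR-9-LOF to miR-9-LOF there were -0.02 and 0.03, with intervals that included 0. The libraries also differed in the interchromosomal share of their autosomal pairs, 16.4%, 14.5%, 18.5% and 17.5% by library. TGFB1 had the lowest share and TGFB1+miR-9-LOF the highest. Whether this bears on the ratios was not tested. Ratios between libraries for the last Mb and for distal with proximal ends were computed in the main setting only, so their dependence on the processing was not tested.

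Joined parts of different chromosomes, as in a translocation, give window pairs far above expectation. Of all window pairs, 16 reached 5 times expectation, 15 between chromosomes 1 and 10 and 1 between 13 and 17, and none of them included a distal end. The distal ends of these chromosome pairs met at 1.52 and 1.52, and without both chromosome pairs the distal-distal value was 1.32.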

How the data were processed

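The authors aligned the reads to mm10 with HiC-Pro at default settings, removed duplicates, assigned reads to MboI fragments and deposited a list of valid pairs for each library, with positions, fragments and the mapping quality score of both ends. From these deposited lists, pairs on autosomes with a score of at least 30 at both ends were counted in 100-kb bins. Bins with at least 50% known bases and at least 20% of the median interchromosomal coverage were kept. For pairs within chromosomes (at least 1 Mb apart), factors were balanced and a distance factor in steps of 10% came from interior bins. Genes were taken from GENCODE M21. No further size or count normalization was applied, since expected numbers carry each library's depth.

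Counts and tests were made with numpy 2.4.6 and scipy 1.17.1 in Python 3.11.15, with pandas 2.3.3, and plots with matplotlib 3.10.9, and the procedures were tested on simulated pairs. Genes were named by rule, for the 3 highest and 3 lowest ends and the 5 bins with the smallest p. Predicted genes were passed over. The regions and lists were chosen with earlier results of these data known. The compartment score, the analysis of the last Mb and the alternatives said to be added were chosen after seeing the data. PCR duplicates had been removed, and intervals cover counting error only.
The terminal sequences of the ends are not reported here.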

Additional observations from a re-analysis of the deposited data

Results flagged for a closer look

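The ratio of TGFB1-treated to untreated libraries in the distal-distal observed over expected differed between cells with and without the miR-9 antagomiR. The log2 difference, with minus without, was -0.11 (two-sided exact noncentral hypergeometric p = 0.00269 on pair counts), from a log2 ratio of 0.03 for TGFB1 over Control and -0.07 for TGFB1+miR-9-LOF over miR-9-LOF. It rests on 1 library per condition and on the bins kept: the difference was -0.03 (exact p = 0.658) with bins between 50% and 200% of the median coverage and -0.07 (exact p = 0.347) with ends of 2 Mb, neither past the threshold, while it kept its direction and its call under the other 12 alternatives (-0.07 to -0.11).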

How the results depend on the processing

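No paired analysis was possible because each condition has 1 library. Over the 4 libraries, the distal-distal value stayed above 1 under all 15 alternatives (1.21 with ends of 10 Mb to 1.82 with ends of 2 Mb), the distal-proximal value of other chromosomes below 1 under all 14 (0.758 to 0.830), and the interchromosomal share of distal ends above that of the interior in every library.

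With bins between 50% and 200% of the median coverage, 623 distal bins passed and 91 pairs of ends could be tested. Of these, 33 (36.3%, against 2.63% of all window pairs in that setting) were called above, 0 below (against 1.85%) and 46 (50.5%, against 10.23%) lay above in all 4 libraries, with 40 bins called above (6.42%, against 0.337% of all bins). The pairs called below numbered 4 of 171 (2.34%) with GC deciles, against 5.90% of all, and 4 with compartment deciles (added after seeing the data), against 4.93%. The bins called above numbered 105 of 354 with ends of 2 Mb (29.7%, against 0.605% of all bins), 336 of 1839 with ends of 10 Mb (18.3%, against 2.56%) and 110 of 921 without pair ends near a TSS, which removes pairs (11.9%, against 0.835%). The bins called below numbered 3 with ends of 10 Mb (0.163%, against 1.74%) and 1 with no mapping quality filter (0.109%, against 0.978%).

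Of 56 values of the distal-distal ratios between libraries under alternatives, 45 kept their direction and side of the threshold. TGFB1 over Control turned to -0.00801 with ends of 2 Mb and -0.0746 with the coverage range above, and passed the threshold at 0.0400 with ends of 10 Mb. TGFB1+miR-9-LOF over TGFB1 turned to 0.0441 and 0.0222, and passed at -0.0312, in the same settings. The call of miR-9-LOF over Control was lost at 0.117 with ends of 2 Mb and at 0.0539 with the coverage range. That of TGFB1+miR-9-LOF over miR-9-LOF was lost at -0.0812 and -0.106 in these settings and at -0.0651 when libraries were thinned to the smallest (median of 10). The difference of the TGFB1 ratio with and without miR-9-LOF, a result whose alternatives were added after seeing the data, lost its call at -0.0732 with ends of 2 Mb and at -0.0317 with the coverage range. The own-end values fell below 1 with the coverage range (0.969, 0.886, 0.962 and 0.951 by library, and 0.947 in all) and, an alternative added after seeing the data, without chromosomes 11 and 19 (0.960, 0.935, 0.969 and 0.978 by library, and 0.963 in all). The cause of these changes was not tested.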
